A study of Mus musculus with 9 samples.

Results

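The expanded and the normal form of human ataxin-3 were compared in the cerebellum of aged transgenic mice. Ataxin-3 is a deubiquitinase whose polyglutamine tract is lengthened in spinocerebellar ataxia type 3 (SCA3, Machado-Joseph disease), an inherited loss of movement coordination in which neurons of the cerebellum, brainstem and spinal cord degenerate. The cerebellum holds Purkinje cells, which carry the only output of its cortex, together with very many small granule cells, inhibitory interneurons, Bergmann glia and myelinating oligodendrocytes. RNA-seq gene counts were used for 3 libraries of mice with 84 glutamines (84Q) and 3 libraries of mice with 15 glutamines (15Q), 6 of the 9 libraries in the series. The other 3 libraries, from 84Q mice injected with insulin-like growth factor 1 (84Q+IGF-1), entered the model for the estimate of the spread and are given beside some values. Of 37816 genes in the table, 19353 had enough counts to be tested.

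Both groups were C57BL/6 mice aged 18 months. Each carried human ATXN3 on a yeast artificial chromosome, so that a transgene was present in the controls as well, and each also kept the mouse Atxn3 gene. The labels call both groups untreated, while their protocol and the study's methods describe weekly intraperitoneal PBS (0.01 M) from month 9 for the mice without IGF-1. The 15Q and 84Q mice were separate transgenic lines from different sources, so the repeat length, the line, the insertion site and the breeding history cannot be told apart in this comparison. Nothing in the labels says which libraries shared a litter, and the p-values measure the spread among these libraries.

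Library totals were 26925001, 40249019 and 58269196 counts in 15Q and 28843999, 22808219 and 17482654 counts in 84Q. Levels are given as counts per 1000000 (CPM, on totals scaled by the TMM factors of edgeR), and 3 counts in a library amounted to between 0.0513 and 0.171 CPM. The sexes were mixed: 2 of the 3 15Q libraries and 1 of the 3 84Q libraries had Xist, the transcript of the inactive X chromosome, at 719 to 949 CPM, and the others had it at 1.15 CPM or less. The summed level of 15 choroid plexus markers was 1215, 178 and 1190 CPM in 15Q against 198, 2147 and 153 CPM in 84Q, so it was high in libraries of both groups. None of these genes was called, and 7 were called without 84Q replicate 2. The markers of Purkinje and granule cells were high throughout, which matched the labelled tissue. Summed over 16 genes, the Purkinje cell markers lay between 10335 and 10883 CPM in 15Q and between 9718 and 10727 CPM in 84Q. In bulk tissue, fewer cells of a type and less RNA per cell cannot be told apart. The mitochondrial genome was not represented, with 0 of its 13 protein genes in the table.

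A gene was called when the quasi-likelihood test of edgeR gave a Benjamini-Hochberg adjusted p under 0.1 and the fold was at least 1.5. By this rule 414 genes, 2.14% of those tested, differed between 84Q and 15Q. Of these, 368 were lower in 84Q (1.90%) and 46 were higher (0.238%). With the same adjusted p and no fold threshold, 928 genes passed (4.80%), 629 lower (3.25%) and 299 higher (1.54%). All 3 84Q libraries lay below all 3 15Q libraries for 13.5% of the tested genes and above them for 11.9%. The median log2 fold change over all tested genes was -0.0019.

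The lower and the higher genes differed in size of change and in level. Among the lower genes, 166 were at least 4-fold lower (162 with genes at 0 in 84Q set to the bound that their counts allow), 101 were between 2-fold and 4-fold lower and 101 were less than 2-fold lower. Among the higher genes only 6 reached 2-fold. The lower genes had a median level of 1.31 CPM over the 6 libraries, the higher genes 3.92 CPM and all tested genes 12.6 CPM. At 5 CPM or less, 300 of 7190 genes (4.17%) were lower and 25 (0.348%) were higher. Above 20 CPM, 15 of 8176 genes were lower and 9 were higher. In 93 of the lower genes each 84Q library held 3 counts or fewer, and in 39 of them every 84Q library held 0. The filter on low counts was reached only with the help of the 15Q libraries by 786 tested genes, 165 of which were among the lower genes. When each of the 9 libraries was left out in turn, 150 of the 368 lower genes stayed called in every case, among them 129 of the 166 that were at least 4-fold lower and 6 of the 101 that were less than 2-fold lower. Only 2 of the 46 higher genes, Suds3 and Acy3, did so. The number of called genes was smallest without 15Q replicate 2 (184 genes) or 15Q replicate 3 (185 genes).

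**Figure D1:**
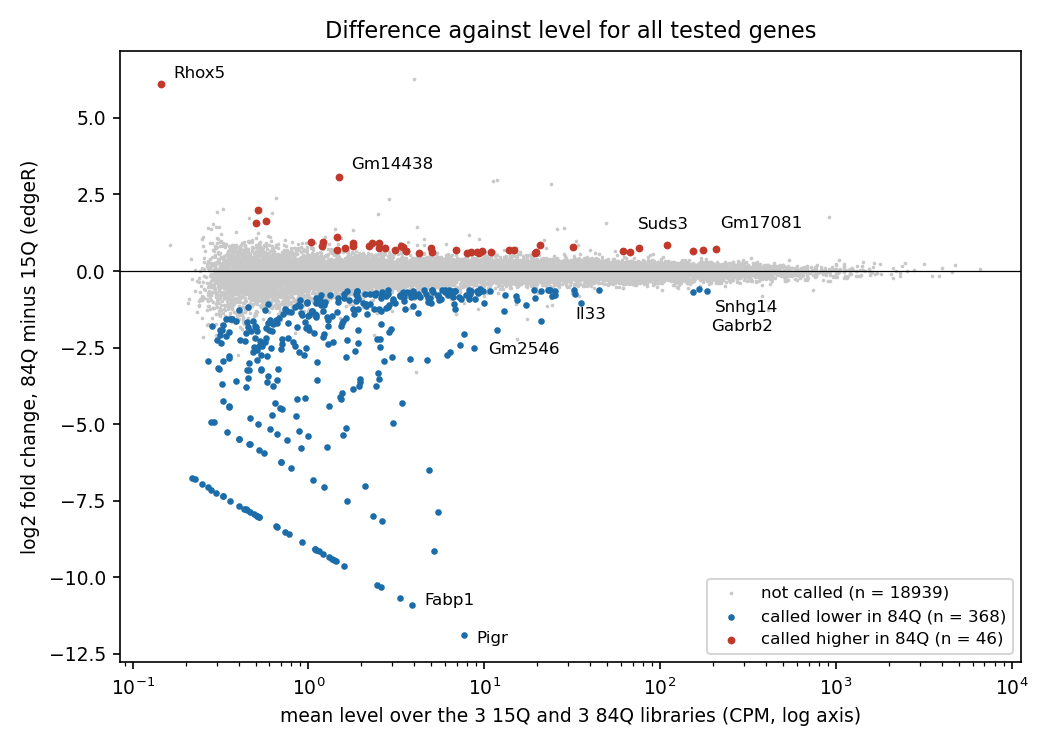
Log2 fold change of 84Q against 15Q (edgeR, vertical axis) against the mean level over the 6 libraries (CPM, log axis) for the 19353 tested genes, with the 368 genes called lower in blue and the 46 called higher in red. The large decreases lie at low levels, and the diagonal lines of blue points are genes with the same 0 or near-0 counts in 84Q, whose fitted change depends on the prior count of the model.

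Suds3 rose the most clearly. It encodes a subunit of the SIN3 histone deacetylase complex, a corepressor that removes acetyl groups from histones at the promoters it is brought to. Its level was 79.6, 83.4 and 73.2 CPM in the 15Q libraries and 133, 144 and 146 CPM in the 84Q libraries, so the groups were far apart. The log2 fold change was 0.84 (SE 0.07, adjusted p = 8.27e-05 by edgeR). The 84Q+IGF-1 libraries, which are set against the same 15Q libraries, had 151, 132 and 149 CPM. The call held without any one of the 9 libraries and under each of the 12 other settings tried. Among the 17 measured members of the complex Suds3 alone was called, and the median log2 fold change of the list was 0.04. The scaffold Sin3a, at 67.9, 68.8 and 67.4 CPM against 62.4, 63.2 and 64.7 CPM, had a log2 difference of -0.10 (adjusted p = 0.299), and the deacetylase Hdac1 had 0.07 (adjusted p = 0.675). Arid4a, a DNA-binding partner of the complex, was lower by the adjusted p alone, at -0.31 (adjusted p = 0.0865), and did not pass when replicate 2 or 3 of any group was left out (0.102 to 0.306) or with Xist or the choroid plexus list as a covariate (0.172 and 0.165).

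Suds3 lies on the minus strand of chromosome 5, from 117091680 to 117116113 in GRCm38. The non-coding gene 9530046B11Rik runs the other way across its start, from 117115218 to 117118723, and was also called higher. It was at 0.781, 0.993 and 0.735 CPM in 15Q and 1.31, 2.11 and 1.37 CPM in 84Q, a log2 fold change of 0.93 (SE 0.25, adjusted p = 0.0857 by edgeR). That call was lost without any of 15Q replicates 1, 2 and 3, 84Q replicates 2 and 3 and 84Q+IGF-1 replicate 2, where the adjusted p was 0.101 to 0.298. It was also lost with Xist or the choroid plexus list as a covariate, with a filter at a mean of 1 CPM, with offsets for transcript length and in a fit of the 6 libraries alone (0.103 to 0.169). The kit was strand-specific, but the strand setting of the counting is not given in the sources used here, so reads of the shared stretch could have been counted for either gene. RefSeq starts Suds3 at 117115993, which lies 120 bases inside the span given above, since the annotations end their transcripts at different positions. The 250 bases before this RefSeq start (GRCm38.p6, minus strand, chr5:117115994-117116243) lie inside the 9530046B11Rik interval, and 120 of them also lie inside the Suds3 span. They are shown because the genes overlap there. CG dinucleotides are in capitals.
Suds3: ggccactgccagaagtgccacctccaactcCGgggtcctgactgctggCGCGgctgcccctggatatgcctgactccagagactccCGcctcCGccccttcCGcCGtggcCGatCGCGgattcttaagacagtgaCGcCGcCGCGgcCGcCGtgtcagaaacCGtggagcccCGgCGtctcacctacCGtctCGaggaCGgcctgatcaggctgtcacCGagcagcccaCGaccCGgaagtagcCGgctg
The stretch holds 26 CG dinucleotides. With the 50 bases after the RefSeq start it holds 34, against a median of 7 over 32817 RefSeq promoter windows of the same 300 bases, and 7.73% of those windows hold as many.

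Acy3, an aminoacylase that removes acetyl groups from mercapturic acids and aromatic amino acids, was the other gene whose call held without any one library. Its levels were 2.08, 2.68 and 2.57 CPM in 15Q and 4.04, 4.92 and 3.93 CPM in 84Q (log2 fold change 0.81, SE 0.16, adjusted p = 0.0268 by edgeR).

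Ifi203 and Mndal, neighbouring members of the interferon-inducible p200 family of nucleic acid-binding nuclear proteins, rose together. Ifi203 was at 6.77, 7.23 and 8.57 CPM in 15Q and 10.9, 13.7 and 11.2 CPM in 84Q (log2 fold change 0.66, SE 0.13, adjusted p = 0.0292). Mndal was at 4.98, 5.54 and 5.42 CPM in 15Q and 8.11, 9.98 and 7.35 CPM in 84Q (0.67, SE 0.14, adjusted p = 0.0346). Neither gene overlapped between the groups. Both calls were lost without 15Q replicate 2 (adjusted p = 0.14 for Ifi203 and 0.115 for Mndal) and, through the fold threshold, without 84Q replicate 2, and that of Mndal also without 15Q replicate 3 (adjusted p = 0.115). They adjoin on the minus strand of chromosome 1, Mndal from 173849126 to 173942491 and Ifi203 from 173920407 to 173942672 in GRCm38, so their annotated spans overlap. Of the 31-base words in their exons, 21.6% in Ifi203 and 28.7% in Mndal also occur in exons of other genes. The most were shared with Ifi203-ps for Ifi203 (15.9%) and with Ifi211 for Mndal (11.9%). Part of their reads could thus belong to such relatives or to each other. RefSeq gives 2 starts for each gene, at 173942672 and 173942492 for Ifi203 and at 173880187 and 173879958 for Mndal, and both Mndal starts lie inside the longer span above, 62304 and 62533 bases from its end. The stretch before the start at 173942492 and before that at 173880187 is shown because, of the pairs of windows, these hold the longest run of shared bases. A match to GAAANNGAAA, the core of the interferon-stimulated response element, is in capitals (RefSeq, GRCm38.p6, minus strand).
Ifi203, chr1:173942493-173942588: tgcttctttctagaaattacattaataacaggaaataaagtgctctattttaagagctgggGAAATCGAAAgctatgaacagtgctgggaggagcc
Mndal, chr1:173880189-173880284: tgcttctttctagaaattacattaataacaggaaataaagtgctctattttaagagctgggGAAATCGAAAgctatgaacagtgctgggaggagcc
These 96 bases are identical in both genes and belong to a shared run of 139 bases that goes on past these starts. The window of the other Ifi203 start holds no match, and that of the other Mndal start holds 1 on the opposite strand at another position. GAAANNGAAA, searched on both strands, occurs in 3.43% of the 32817 promoter windows.

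The other interferon-stimulated genes gave a mixed picture. Ifi203 and Mndal were the called members among 22 tested, of which 16 had a log2 difference above 0, with a median of 0.30. That median was -0.01 without 84Q replicate 3. In that library Ifit3, an antiviral protein that interferon strongly induces, was at 60.7 CPM, against 27.8 and 39.1 CPM in the other 84Q libraries and 25, 32.6 and 42.8 CPM in 15Q (log2 difference 0.33, adjusted p = 0.554). The p200 relative Ifi207 had a log2 difference of -0.99 and was not called.

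Some genes of the oligodendrocyte lineage were above 15Q by small factors. Olig1 and Olig2, transcription factors that specify the lineage, passed the adjusted p without reaching 1.5-fold. Olig1 was at 53.2, 43.8 and 44.2 CPM in 15Q and 73.1, 65.4 and 63.3 CPM in 84Q (log2 fold change 0.52, adjusted p = 0.0297 by edgeR). Olig2 was at 13.2, 11.7 and 13.1 CPM against 22.1, 17.5 and 15.8 CPM (0.56, adjusted p = 0.0381). Enpp6, a choline phosphodiesterase of newly forming oligodendrocytes, was at 9.67, 8.76 and 8.43 CPM against 14, 13.3 and 12.7 CPM (0.58, adjusted p = 0.0373). In these 3 genes each 84Q library lay above each 15Q library. Olig1, Olig2 and Enpp6 were the members past the adjusted p among 25 tested genes of the oligodendrocyte and myelin list, which had a median of 0.14, and that median was -0.05 without 84Q replicate 1. None of the 3 genes passed without 15Q replicate 2 (adjusted p 0.144 to 0.165) or 15Q replicate 3 (0.107 to 0.153), and Olig1 did not with the length offsets (0.105). Mbp, myelin basic protein, had a log2 difference of 0.18 and was not called (adjusted p = 0.392). Among 9 precursor genes, the sialidase Neu4 was called higher (0.66, adjusted p = 0.0835), and this call was lost without any of the 15Q or 84Q libraries (adjusted p 0.111 to 0.274). Neu4 was also not called with Xist as a covariate, with a filter at a mean of 1 CPM or with the length offsets.

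Apln, Sox21, Pcdh8, Sfrp2, Slc34a3 and C1qtnf4 were further protein-coding genes called higher. Apln, the peptide ligand apelin, was at 13.8, 18.2 and 14.7 CPM in 15Q and 24.6, 20.6 and 25.1 CPM in 84Q (log2 fold change 0.59, adjusted p = 0.0469). Sox21, a transcription factor of neural progenitors, was at 4.31, 3.92 and 3.68 CPM against 5.55, 5.85 and 6.78 CPM (0.61, adjusted p = 0.0423). Pcdh8, an activity-regulated protocadherin, was at 1.75, 1.44 and 1.59 CPM against 2.83, 2.99 and 3.14 CPM (0.91, adjusted p = 0.0497). In each of these genes the groups did not overlap. Sfrp2, a secreted Wnt antagonist, was at 1.12, 1.07 and 1.52 CPM against 2.86, 1.76 and 2.45 CPM (0.92, adjusted p = 0.0639). Slc34a3, a sodium-phosphate cotransporter best known from the kidney, was at 0.112, 0.199 and 0.274 CPM against 1.03, 0.835 and 0.627 CPM (2.0, adjusted p = 0.0325). C1qtnf4, a secreted protein of the C1q and TNF family, was the highest of the 6, at 64.0, 51.2 and 44.2 CPM against 63.0, 85.4 and 98.6 CPM (0.63, adjusted p = 0.0844), and its groups overlapped. Each of these 6 calls was lost without 1 or more libraries: Apln without 15Q replicate 3 (adjusted p = 0.176) or 84Q replicate 3 (0.152) and, through the fold threshold, without 15Q or 84Q replicate 1, Sox21 and Pcdh8 without 15Q replicate 2 (0.165 and 0.191), 15Q replicate 3 (0.186 and 0.178) or 84Q replicate 3 (0.139 for both), Sfrp2 without 15Q replicate 1 or 2 or 84Q replicate 1 or 3 (0.105 to 0.229), Slc34a3 without 15Q replicate 2 (0.144), and C1qtnf4 without replicate 2 or 3 of either group (0.145 to 0.285).

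**Figure D2:**
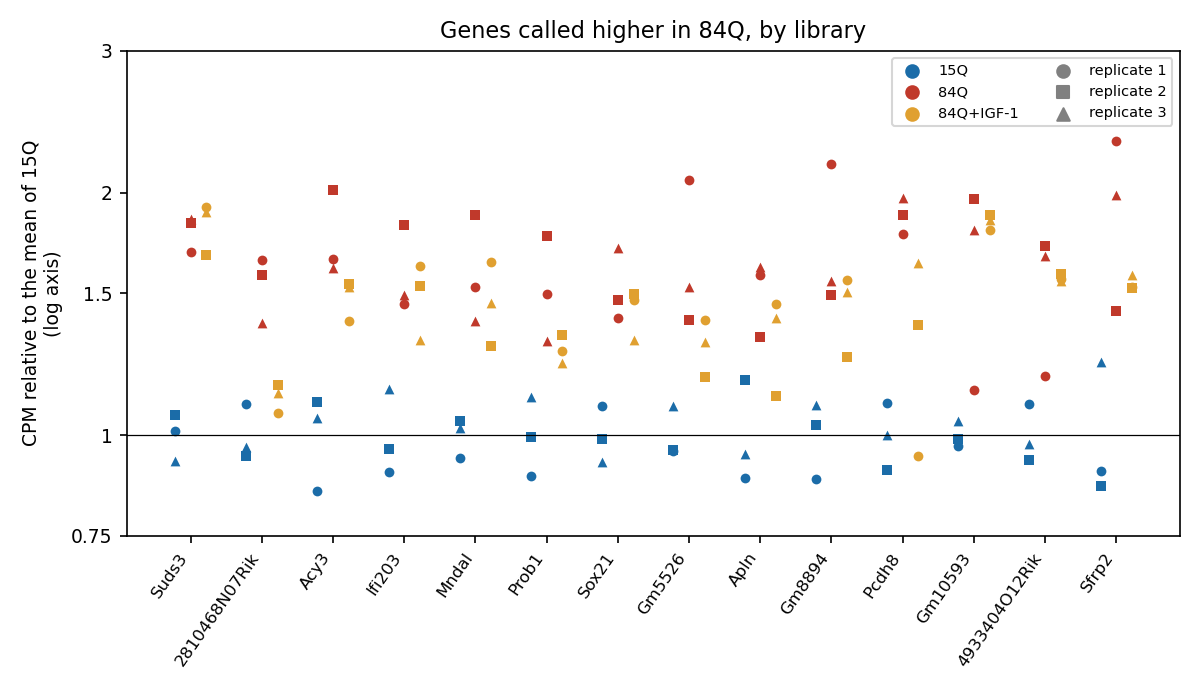
Level of 14 of the 15 genes called higher in 84Q that have the smallest p among those at 1 CPM or more with no overlap between the groups, in each library relative to the 15Q mean (log axis, colour for group and shape for replicate). All 84Q libraries lie above all 15Q libraries by construction, and the 84Q+IGF-1 libraries, whose levels are not part of this contrast, lie at or above 15Q for most of them.

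A block of higher genes lay on chromosome 4 between 41809083 and 42587038, with 7 called among 29 tested genes. It held Gm10601, Gm13302, Gm3893, Gm13301, Gm5859, Gm17081 and Gm10593, annotated mostly as pseudogenes. Gm17081 was at 159, 146 and 167 CPM in 15Q and 156, 329 and 288 CPM in 84Q (log2 fold change 0.71, adjusted p = 0.0889), and at 308, 333 and 320 CPM in 84Q+IGF-1. Gm5859 was at 135, 119 and 146 CPM in 15Q and 136, 282 and 231 CPM in 84Q (0.70, adjusted p = 0.0881), and at 262, 282 and 270 CPM in 84Q+IGF-1. In both, 84Q replicate 1 was at the level of 15Q while the other libraries of 84Q were near 2 times that level. For these 7 genes between 88.0% and 100% of the 31-base exon words also occur in other genes, so their counts cannot be assigned to single genes. The calls of Gm17081 and Gm5859 were lost without any library other than 84Q replicate 1 and 84Q+IGF-1 replicate 1 (adjusted p 0.102 to 0.277).

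Many low-level transcripts that are typical of other organs were lower in 84Q. Lists of intestine, liver, epidermis and skeletal muscle genes together held 37 of the 368 lower genes, and the remaining lower genes were not covered by them. Of the 81 measured genes of these lists, 40 had 3 counts or fewer in each 84Q library, 14 of 24 for intestine, 11 of 22 for liver, 10 of 17 for epidermis and 5 of 18 for skeletal muscle. The summed intestine list was 52.4, 72.3 and 78.3 CPM in 15Q and 19.1, 22.1 and 19.6 CPM in 84Q. The summed liver list was 37.6, 58.1 and 66.8 CPM in 15Q and 8.42, 10.3 and 8.72 CPM in 84Q. The summed epidermis list was 29.4, 45.4 and 46.6 CPM in 15Q and 15.5, 17.0 and 15.7 CPM in 84Q. In each of these sums all 3 15Q libraries were above all 3 84Q libraries, and 15Q replicate 1 was the lowest of its group. The summed skeletal muscle list was far higher, at 173, 192 and 195 CPM in 15Q and 170, 169 and 163 CPM in 84Q. Its 15Q libraries were also all above its 84Q libraries, by small factors. In 84Q+IGF-1 the intestine, liver and epidermis sums were between 18.8 and 18.9 CPM, 6.35 and 7.06 CPM, and 13.7 and 15.6 CPM. Those called lower were 11 of 14 tested genes for intestine, 9 of 10 for liver, 8 of 13 for epidermis and 9 of 16 for skeletal muscle, and none was called higher, beside 1.90% of all tested genes called lower. These shares are descriptions only, because 10, 6, 7 and 5 of the tested genes reached the filter on low counts only with the 15Q libraries, in which they were high. With genes at 0 in 84Q set to their bound, the median log2 fold changes of the tested genes were -2.99, -2.85, -2.69 and -1.44. A stricter filter of a mean of at least 1 CPM left 6, 6, 3 and 3 called genes in the lists of intestine, liver, epidermis and skeletal muscle.

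Pigr, the receptor that carries secretory antibodies across epithelia, is no member of these lists and was chosen after its values were seen. It was at 9.26, 18.2 and 18.4 CPM in 15Q and at 0 in each 84Q library (adjusted p = 0.000227). Set against the mean of the 3-count floors, the 15Q mean was at least 113-fold higher. Among the intestine list, Fabp1, the fatty acid-binding protein of liver and gut, was at 5.61, 8.57 and 9.01 CPM in 15Q and 0 in 84Q (at least 57.1-fold, adjusted p = 3.42e-05). Sis, sucrase-isomaltase of the brush border, was at 5.28, 7.08 and 7.63 CPM in 15Q and 0 in 84Q (at least 49.2-fold, adjusted p = 0.00016). Cdx2, the transcription factor that sets intestinal identity, was at 0.409, 0.770 and 0.855 CPM in 15Q and at 0.0345, 0 and 0 CPM in 84Q (92 counts against 1, a ratio of 50.7 with a 95% exact counting interval of 8.88 to 2025, adjusted p = 0.00996). Muc13, a mucin of epithelial surfaces, went from 6.21, 10.4 and 12 CPM to 0.0345, 0.220 and 0.0570 CPM (log2 fold change -6.51, adjusted p = 3.48e-05). Each of these 5 calls held without any one library. Vil1, villin of the microvilli, was at 3.16, 4.20 and 4.09 CPM in 15Q and remained detected in 84Q at 0.966, 2.2 and 1.94 CPM (-1.20, adjusted p = 0.0392, and 0.161 without 15Q replicate 2 or 0.157 without 15Q replicate 3).

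Among the liver genes, F2, prothrombin, was at 2.60, 3.67 and 3.78 CPM in 15Q and 0.241, 0.264 and 0.171 CPM in 84Q (log2 fold change -3.85, adjusted p = 5.31e-05 by edgeR). Serpinc1, antithrombin, a liver product outside the list, was at 2.79, 3.80 and 4.19 CPM in 15Q and 0.207, 0.176 and 0.456 CPM in 84Q (-3.76, adjusted p = 9.21e-05). Fgb, the fibrinogen beta chain, was at 1.08, 2.63 and 2.94 CPM in 15Q and 0 in each 84Q library (at least 16.4-fold, adjusted p = 0.00506). Cyp3a11, a drug-metabolising cytochrome P450, was at 1.71, 2.31 and 2.87 CPM in 15Q and 0 in 84Q (at least 17.0-fold). Alb, serum albumin and the most abundant liver transcript, was at only 1.97, 4.02 and 4.62 CPM in 15Q and 0, 0.0440 and 1.08 CPM in 84Q (-3.53, adjusted p = 0.0567), and its call was lost when 15Q replicate 2 (0.176) or 3 (0.199) or 84Q replicate 2 (0.114) was left out. Apoa1, an apolipoprotein of gut and liver that was counted in the intestine list, had a log2 difference of -1.37 and was not called (adjusted p = 0.133).

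Among the epidermal genes, Krt5 and Krt14, the paired keratins of basal keratinocytes, fell. Krt5 was at 2.08, 3.60 and 3.90 CPM in 15Q and 0 in 84Q (at least 23.6-fold, adjusted p = 0.000219). Krt14 was at 3.57, 7.82 and 7.97 CPM in 15Q and 0.517, 0.0879 and 0.342 CPM in 84Q (-4.30, adjusted p = 0.000342). Sprr2a2, a cornified envelope precursor outside the epidermis list, was at 6.28, 10.7 and 13.9 CPM in 15Q and 0, 0.0440 and 0 CPM in 84Q (a ratio of 778 with a counting interval of 139 to 30752, adjusted p = 3.27e-05). Sprr2a2, Sprr2a1 and Sprr2a3 are near-identical copies whose reads cannot be split with certainty. In skeletal muscle genes, Myh4, a fast myosin heavy chain, was at 3.27, 5.11 and 5.54 CPM in 15Q and 0.0345, 0 and 0 CPM in 84Q (a ratio of 341 with a counting interval of 60.9 to 13481, adjusted p = 3.27e-05). Tnnt3, fast troponin T, was at 1.82, 3.03 and 2.67 CPM in 15Q and 0.138, 0.0879 and 0.114 CPM in 84Q (-4.41, adjusted p = 0.000106). These 5 calls also held without any one library. Krt10, a keratin of the upper epidermis, was 6.43, 9.21 and 8.60 CPM against 4.76, 4.4 and 5.87 CPM (-0.70, adjusted p = 0.0474), with an adjusted p of 0.195 without 15Q replicate 2, 0.185 without 15Q replicate 3 and 0.102 without 84Q replicate 2.

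**Figure D3:**
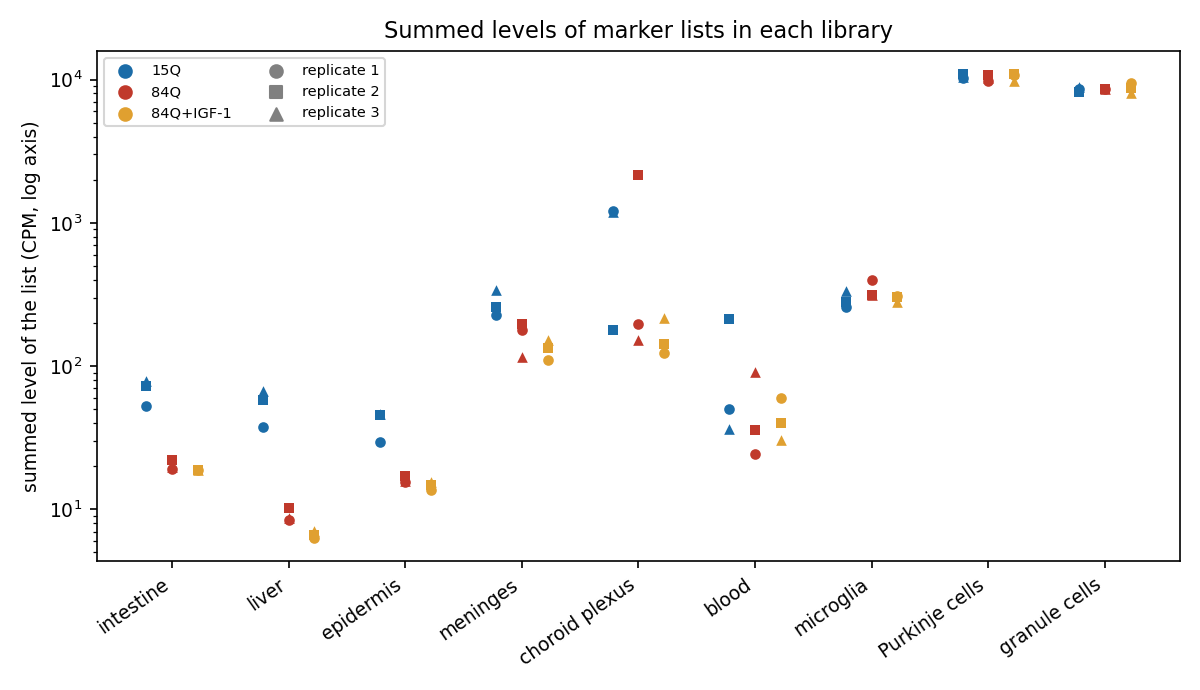
Summed level (CPM, log axis) of marker lists of other organs, brain-adjacent tissues and cerebellar cells in each library, with colour for group and shape for replicate. The intestine, liver and epidermis sums separate 15Q from 84Q and 84Q+IGF-1, whereas the choroid plexus and blood sums vary within groups and the Purkinje and granule cell sums barely move.

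Several of these genes were neighbours. Counting called genes of the same direction less than 1 Mb apart, 84 lower genes fell in 20 runs of 3 or more. Keratin runs lay on chromosome 11 (Krt10, Krt15, Krt19, Krt14 and Krt17 among 8 called genes) and on chromosome 15 (Krt7, Krt6b, Krt6a, Krt5, Krt77, Krt79 and Krt8 among 8 called genes). On chromosome 3 a run of 7 called among 9 tested genes held Sprr2a1, Sprr2a2, Sprr2a3, Lce1m, Flg2, Flg and Hrnr of the epidermal differentiation complex, and in each of them every 84Q library had 3 counts or fewer. The glutathione transferases Gsta1 and Gsta2 on chromosome 9, with Gm3776 and Gm10639 between them, were 4 called of 4 tested, at 0 in every 84Q library. Genes with so few counts in 84Q could not reach the filter on low counts through the 84Q libraries. The numbers called in such runs are therefore descriptions only, beside 1.90% of all tested genes called lower. The carboxylesterases Ces2a, Ces2c, Ces2e and Ces2g on chromosome 8 and Cyp2c55, Cyp2c65, Cyp2c66 and Cyp2c29 on chromosome 19 formed further runs. Of 1188 tested processed pseudogenes 79 (6.65%) were lower, against 248 of 15157 protein-coding genes. The processed pseudogene Gm2546 was at 13.9, 16.4 and 14.2 CPM in 15Q and 3.00, 2.37 and 2.45 CPM in 84Q (log2 fold change -2.50, adjusted p = 2.55e-05). Of its 31-base words 91.4% occur in other genes, so its counts may belong to another locus.

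Mki67, Top2a and Kif11, which dividing cells express, were called lower, although no list of such genes was tested. Mki67, the Ki-67 antigen, was at 3.64, 5.09 and 6.82 CPM in 15Q and 0.552, 0.484 and 1.31 CPM in 84Q (log2 fold change -2.81, SE 0.41, adjusted p = 0.00479 by edgeR). Top2a, the topoisomerase that untangles chromosomes before mitosis, was at 1.71, 2.93 and 3.54 CPM in 15Q and 0.552, 0.220 and 1.03 CPM in 84Q (-2.26, SE 0.41, adjusted p = 0.0185). Neither overlapped between groups and both calls held without any one library. Kif11, a motor of the mitotic spindle, was at 1.38, 1.27 and 1.83 CPM against 0.862, 0.352 and 0.570 CPM (-1.30, adjusted p = 0.0748), and its call was lost without replicate 2 or 3 of either group (adjusted p 0.147 to 0.278). The organ-typical genes described above moved in the same libraries, and their part in the values of Mki67, Top2a and Kif11 was not tested.

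C3, C1s1 and H2-Ab1, of a list of complement and antigen presentation genes, were called lower. C3, the central complement component, was at 10.9, 22.9 and 22.3 CPM in 15Q and 6.93, 3.82 and 3.99 CPM in 84Q (log2 fold change -1.91, SE 0.29, adjusted p = 0.00571). C1s1, a protease of the first complement component, was at 2.19, 2.76 and 2.94 CPM against 0.793, 1.27 and 0.912 CPM (-1.42, SE 0.24, adjusted p = 0.0121). Both held without any one library. H2-Ab1, a chain of the class II antigen-presenting molecule, was at 2.71, 2.98 and 6.11 CPM against 1.86, 1.93 and 1.43 CPM (-1.18, adjusted p = 0.0859), and its call was lost without 15Q replicates 2 or 3, any 84Q replicate or 84Q+IGF-1 replicate 2 (adjusted p 0.101 to 0.315). These were 3 of 16 tested genes, of which 6 had a log2 difference above 0. The list median was -0.31, and -0.10 without 15Q replicate 3, and the summed level of the list had a mean of 506 CPM in both groups. C3 and C1s1 are also made by liver and connective tissue, and the part of those tissues was not tested.

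Il33 and its receptor moved in opposite directions. Il33, a cytokine stored in the nuclei of glia and released on injury, was at 41.3, 37.6 and 44.9 CPM in 15Q, 30.1, 20.3 and 23.3 CPM in 84Q and 14.6, 20.7 and 22.1 CPM in 84Q+IGF-1. The difference between 84Q and 15Q was -0.75 on the log2 scale (SE 0.16, adjusted p = 0.0407 by edgeR). Il1rl1, which encodes the receptor ST2 and was singled out after its values were seen, was at 0.297, 0.248 and 0.239 CPM in 15Q and 1.0, 0.791 and 0.456 CPM in 84Q (1.57, SE 0.35, adjusted p = 0.0485). The groups did not overlap for either gene. The call of Il33 was lost without 15Q replicate 3 (adjusted p = 0.16) or 84Q replicate 3 (0.138), and that of Il1rl1 when 15Q replicate 2 (0.18), 15Q replicate 3 (0.205) or 84Q replicate 1 (0.117) was left out.

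Genes of the meninges and of connective tissue were below 15Q. All 14 tested meningeal genes had a log2 difference under 0, with a median of -0.70, and 3 were called, Col1a1, Bgn and Lum. Col1a1, the main fibrillar collagen, was at 21.4, 26.8 and 29.4 CPM in 15Q and 16.4, 18.0 and 14.6 CPM in 84Q (-0.67, SE 0.12, adjusted p = 0.0206). Bgn, the matrix proteoglycan biglycan, was at 27.1, 25.9 and 33.0 CPM against 19.9, 21.6 and 14.4 CPM (-0.62, adjusted p = 0.0643). The meningeal sum was 228, 260 and 337 CPM in 15Q and 178, 197 and 116 CPM in 84Q, with 15Q replicate 3 highest and 84Q replicate 3 lowest. No meningeal gene was called without 15Q replicate 3, 1 was called without 15Q replicate 2 or 84Q replicate 3, and 8 and 7 were called without 15Q replicate 1 and 84Q replicate 2. Among 26 collagen and laminin genes the median was -0.27, and 2 were called, among them Col1a1. This number was 0 without 15Q replicate 3 and 6 without 15Q replicate 1. Among 19 vascular genes the lipid transporter Mfsd2a of the blood-brain barrier was called higher (0.62, adjusted p = 0.0865), while Myh11, smooth muscle myosin (-0.62, adjusted p = 0.0452), and the pericyte and brush border peptidase Anpep (-0.92, adjusted p = 0.0305) were called lower. Without 15Q replicate 3 none of these 3 genes was called, at an adjusted p of 0.294, 0.164 and 0.139. The call of Mfsd2a was also lost without 15Q replicate 1 or any 84Q replicate (0.128 to 0.151), that of Myh11 without 84Q replicate 3 (0.144) and, through the fold threshold, 15Q replicate 1, and that of Anpep without 15Q replicate 2 (0.102). Mfsd2a was also not called with the choroid plexus list as a covariate, with a filter at a mean of 1 CPM or with the length offsets.

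Among the called genes above 20 CPM were Gabrb2, Stxbp5l and Snhg14, which neurons express, all lower in 84Q. Gabrb2, the beta-2 subunit of the GABA-A receptor, which with the alpha subunits forms the main inhibitory chloride channel of the cerebellum, was at 168, 205 and 227 CPM in 15Q and 145, 139 and 111 CPM in 84Q (log2 fold change -0.60, SE 0.16, adjusted p = 0.0821 by edgeR). The groups did not overlap, and the call was lost without replicate 2 or 3 of either group (adjusted p 0.118 to 0.281), with Xist (through the fold threshold) or the choroid plexus list (0.168) as a covariate and with robust shrinkage (0.155). Gabra2, an alpha subunit, was at 20.7, 21.8 and 21.6 CPM against 16.0, 15.2 and 14.8 CPM (-0.48, SE 0.08, adjusted p = 0.0107), below the fold threshold. Gabra6, the alpha subunit found in granule cells, was at 402, 379 and 420 CPM against 434, 389 and 459 CPM (0.09, adjusted p = 0.599). The 13 GABA-A receptor genes had a median of -0.08. Stxbp5l, the syntaxin-binding protein tomosyn-2, was at 32.9, 44.2 and 66.0 CPM in 15Q and 27.3, 24.6 and 17.0 CPM in 84Q (-1.05, adjusted p = 0.0869, lost without replicate 2 or 3 of either group at 0.137 to 0.305 and, among others, with robust shrinkage at 0.204). The long transcript Snhg14 of the imprinted Prader-Willi region was at 207, 202 and 268 CPM against 171, 98.9 and 163 CPM (-0.65, adjusted p = 0.087). That call was lost without replicate 2 or 3 of either group or 84Q+IGF-1 replicate 3 (adjusted p 0.104 to 0.301) and, among others, with robust shrinkage (0.179), and its neighbours Gm38393 and Gm44562 were called in the same direction.

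Other called genes above 20 CPM were glial or general. Slc7a11, the cystine and glutamate exchanger of astrocytes, was at 28.4, 28.3 and 36.8 CPM in 15Q and 22.1, 22.0 and 14.6 CPM in 84Q (-0.67, adjusted p = 0.0542, and 0.117, 0.216 and 0.134 without 15Q replicate 2, 15Q replicate 3 and 84Q replicate 3). It was the called gene among 15 of the integrated stress response, and its call was also lost with the choroid plexus covariate (0.108) and, through the fold threshold, with the length offsets. Bdp1, a subunit of the factor that places RNA polymerase III, was at 47.2, 52.2 and 63.3 CPM against 37.1, 35.6 and 34.6 CPM (-0.60, adjusted p = 0.0343, and 0.102, 0.141 and 0.117 without the same 3 libraries). Its call was also lost through the fold threshold with Xist or the choroid plexus list as a covariate and with the length offsets.

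Channels, receptors and release proteins otherwise differed by less than 1.5-fold. Past the adjusted p were the AMPA receptor subunit Gria4 (-0.23, 1 of 17 glutamate receptor genes), the calcium channel subunits Cacna1e (-0.37) and Cacnb4 (-0.38) among 19 sodium and calcium channel genes, and the potassium channels Kcnma1 (-0.22) and Kcnk1 (0.25) among 21. None of these 5 genes passed when replicate 2 or 3 of 15Q or replicate 3 of 84Q was left out (adjusted p 0.178 to 0.287), and Cacna1e, Kcnma1 and Kcnk1 did not with the length offsets (0.11, 0.458 and 0.251). No gene of 21 for synaptic vesicles and release passed, and their median was -0.0049. The medians were -0.09 for the glutamate receptors, -0.09 for the sodium and calcium channels and -0.07 for the potassium channels.

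The cell type lists of the cerebellum held 4 called genes among 149 tested (2.68%, beside 2.14% of all tested genes), Neu4, Mfsd2a, Myh11 and Anpep. Of 16 Purkinje cell genes 3 passed the adjusted p alone, beside 4.80% of all tested genes that passed it at any fold. Pcp2, a G protein regulator confined to Purkinje cells in the cerebellum, was at 130, 135 and 121 CPM in 15Q and 149, 163 and 177 CPM in 84Q (0.34, adjusted p = 0.0936). Slc1a6, their glutamate transporter, was at 135, 112 and 122 CPM against 136, 164 and 169 CPM (0.34, adjusted p = 0.0643). Rora, the nuclear receptor needed for their survival, was at 283, 291 and 346 CPM against 248, 244 and 231 CPM (-0.35, adjusted p = 0.0569). Calb1, the calcium buffer calbindin, was at 807, 794 and 771 CPM against 818, 816 and 934 CPM (0.11, adjusted p = 0.495), and Itpr1, the calcium release channel of these cells, had a difference of -0.16 (adjusted p = 0.467). The Purkinje cell genes thus lay on both sides of 0, with a median of 0.10 that was 0.0080 without 84Q replicate 3. None of Pcp2, Slc1a6 and Rora passed when replicate 2 or 3 of 15Q or replicate 3 of 84Q was left out (adjusted p 0.14 to 0.304) or with the length offsets (0.111 to 0.204), and Pcp2 and Slc1a6 did not with Xist as a covariate (0.188 and 0.108). No member of 14 granule cell genes (median 0.01), 17 genes of astrocytes and Bergmann glia (0.01) or 15 genes of glial reaction (-0.08) passed. Among 16 genes of inhibitory interneurons and unipolar brush cells (median -0.03), the interneuron transcription factor Tfap2b passed the adjusted p (-0.25, adjusted p = 0.0898), and did not pass when any one of 7 of the 9 libraries was left out (0.106 to 0.272), with the choroid plexus covariate (0.168) or in the fit of 6 libraries (0.112). Gfap, the intermediate filament of reactive astrocytes, was at 278, 361 and 409 CPM against 378, 400 and 258 CPM (-0.02, adjusted p = 0.972). Of 18 microglial genes, with a list median of 0.17 that was -0.0061 without 84Q replicate 1, 2 passed the adjusted p, among them Csf1r, the receptor that microglia need to survive (0.37, adjusted p = 0.0271). Csf1r was at 47.5, 46.1 and 49.3 CPM in 15Q and 66.0, 64.0 and 54.2 CPM in 84Q, and did not pass without 15Q replicate 2 (0.141).

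**Figure D4:**
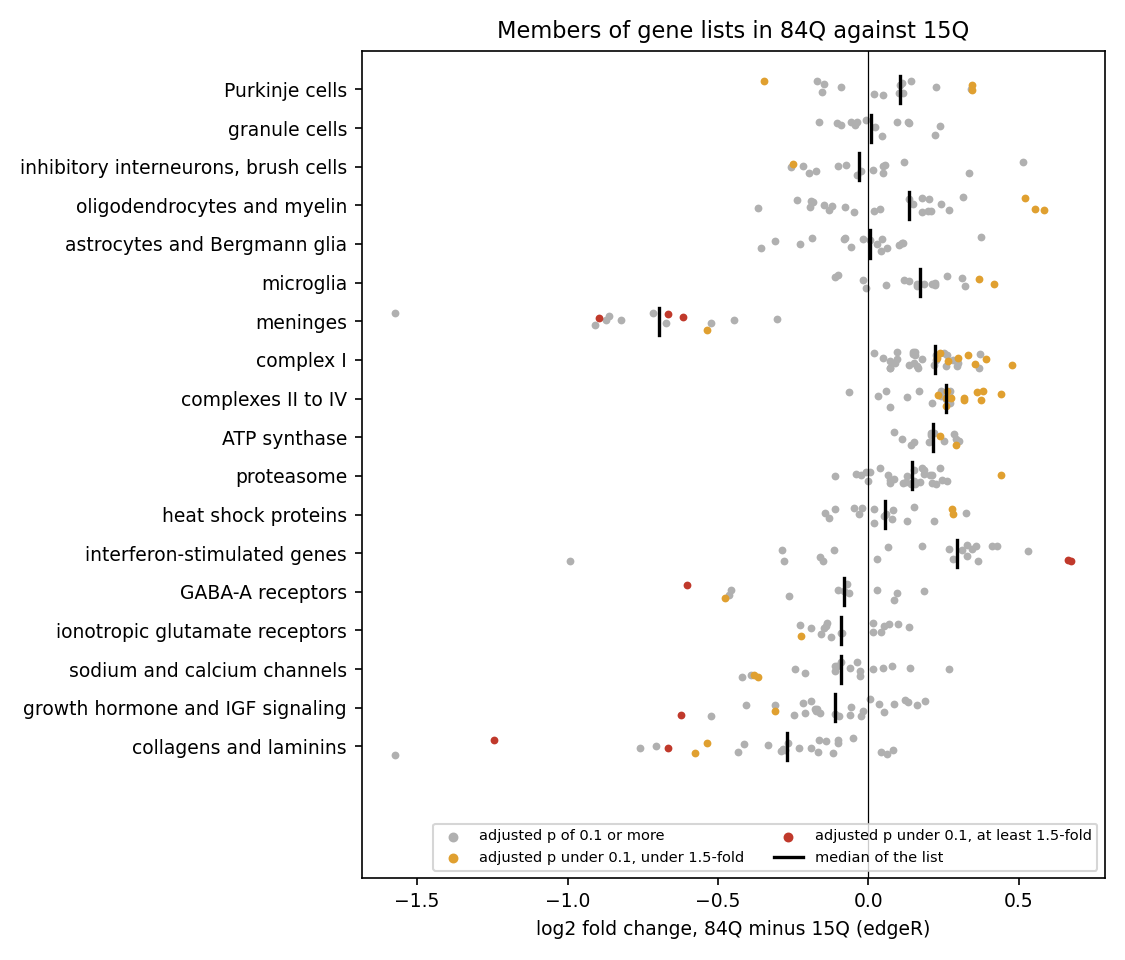
Log2 fold change of 84Q against 15Q (edgeR, horizontal axis) for each tested member of 18 gene lists, with the list median as a black bar, called genes in red and genes past the adjusted p alone in orange. The meningeal genes all lie left of 0 (median -0.70) and the complex I genes all right of 0 (median 0.22), while the Purkinje, granule cell and astrocyte lists straddle 0.

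Nuclear genes of oxidative phosphorylation were slightly above 15Q. All 36 genes of complex I, the entry point of electrons from NADH, had a log2 difference above 0 (median 0.22), 24 of them with no overlap between groups, and 8 passed the adjusted p. For complexes II to IV, 23 of 24 genes were above 0 (median 0.26) and 11 passed. For ATP synthase 14 of 14 were above 0 (median 0.21) and 2 passed. None reached 1.5-fold. Ndufv1, the NADH-binding subunit, was at 76.5, 75.3 and 74.3 CPM in 15Q and 91.8, 91.6 and 101 CPM in 84Q (0.33, SE 0.06, adjusted p = 0.0161 by edgeR). Uqcrfs1, the Rieske iron-sulfur protein of complex III, was at 41.6, 37.7 and 39.6 CPM against 48.2, 52.1 and 61.5 CPM (0.44, adjusted p = 0.0345). Cox8a, a subunit of cytochrome oxidase, was at 98.3, 94.6 and 93.9 CPM against 116, 120 and 122 CPM (0.32, adjusted p = 0.0558). Atp5b, the catalytic subunit of ATP synthase, had a difference of 0.24 (adjusted p = 0.0706). When 15Q replicate 2 or 3 or 84Q replicate 3 was left out, no more than 2 genes of complex I, 1 of complexes II to IV and 0 of ATP synthase passed. With Xist as a covariate 2, 3 and 0 genes of these complexes passed, and with the choroid plexus list as a covariate 2, 2 and 0.

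Some other lists had smaller differences in the same direction. Glycolysis had 16 of 16 genes above 0 (median 0.15), with the kinase Pgk1 past the adjusted p (0.23). The citric acid cycle had 17 of 18 above 0 (median 0.14), with the malate dehydrogenases Mdh1 (0.32) and Mdh2 (0.28) and Idh3b (0.19) past it. The proteasome had 27 of 31 above 0 (median 0.14), with the core subunit Psmb4 past it (0.44, adjusted p = 0.0243). The chaperones Hspa8 and Hspa5 (0.28 each), among 18 heat shock genes, and the peroxide-reducing enzymes Prdx2 (0.32) and Gpx4 (0.29), among 21 antioxidant genes, also passed. No gene passed among 19 of fatty acid beta-oxidation (median 0.08), 22 of cholesterol synthesis (-0.04), 16 of autophagy and lysosome (0.13) or 13 of the p53 and DNA damage response (0.03). Clock was the gene past the adjusted p among 16 circadian genes (-0.39, adjusted p = 0.0373). None of the 10 genes from Pgk1 to Clock passed without 15Q replicate 2 (adjusted p 0.111 to 0.272), and without 15Q replicate 3 Psmb4 alone did (0.0863).

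The small differences of the respiratory complexes ran together with transcript length. Genes of complex I, of complexes II to IV and of ATP synthase have short transcripts, with a median exon length of 1644, 1457 and 2077 bases, against 3707 bases over all tested genes. The medians for glycolysis and the citric acid cycle, 3737 and 3925 bases, were not short. Among 11477 protein-coding genes with a mean of at least 5 CPM, divided into quintiles by exon length, the median log2 difference went from 0.13 in the shortest quintile (median 2094 bases) over 0.08, 0.04 and -0.01 to -0.09 in the longest (10569 bases). In the shortest quintile 140 of 2298 genes were higher and 7 lower at the adjusted p, and in the longest 5 of 2296 were higher and 164 lower. Across these genes, which are not independent, Spearman's rho between exon length and the difference was -0.48, and -0.39 without 84Q replicate 3. Relative to the mean of the 9 libraries, the median of the shortest quintile was shifted by -0.07, -0.07 and -0.09 in the 15Q libraries and by 0.03, 0.01 and 0.12 in the 84Q libraries, so it separated the groups and was largest in 84Q replicate 3. With offsets that set the level of 20 length classes equal in all libraries, a setting added after the data were seen, rho was -0.04, the medians of complex I, complexes II to IV and ATP synthase were 0.14, 0.14 and 0.11, and 2, 2 and 1 of their genes passed. With these offsets no gene of the citric acid cycle or of the heat shock proteins passed, and 1 gene each of glycolysis, the proteasome and the antioxidant enzymes did. The medians were 0.11 for glycolysis, 0.08 for the citric acid cycle and 0.04 for the proteasome. With the same offsets the calls of Suds3 (adjusted p = 0.000139), Acy3 (0.0668), Ifi203 (0.0265) and Mndal (0.0562) remained.

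**Figure D5:**
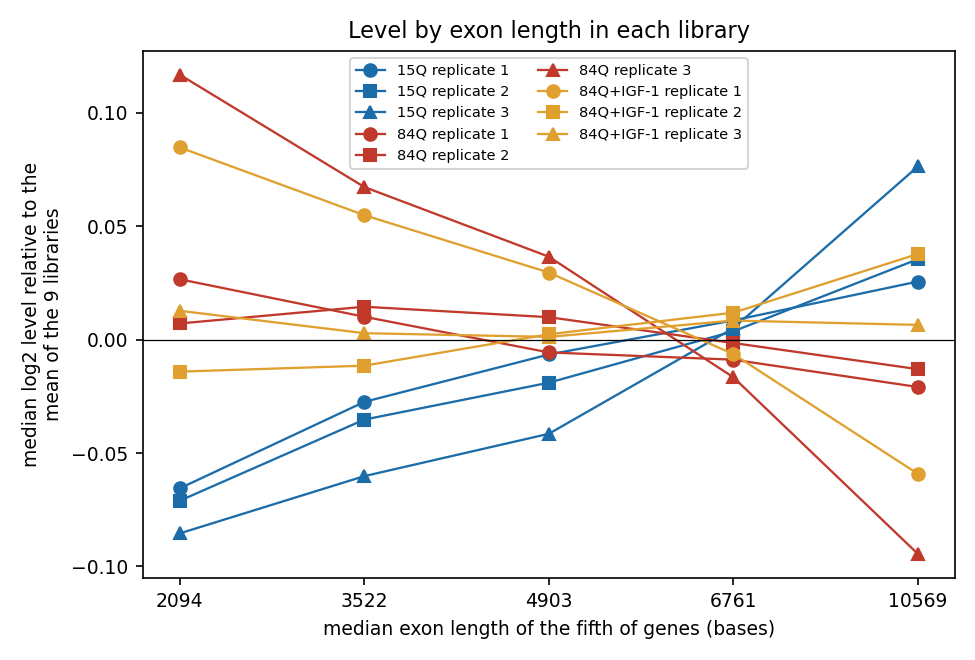
Median log2 level relative to the mean of the 9 libraries (vertical axis) for 5 length classes of 11477 protein-coding genes, given by their median exon length in bases (horizontal axis), with 1 line per library. The 3 15Q libraries rise from short to long genes, and the 84Q libraries end lower than they start, most clearly replicate 3. The line of 84Q replicate 2 changes little over the shorter classes.

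The growth hormone and IGF pathway was the study's target for treatment, and its ligand Igf1 was called lower in 84Q. Igf1 was at 8.36, 10.9 and 10.6 CPM in 15Q and 7.42, 5.85 and 6.10 CPM in 84Q (log2 fold change -0.62, SE 0.13, adjusted p = 0.0405 by edgeR), with no overlap, and at 6.48, 6.81 and 6.82 CPM in 84Q+IGF-1. The call was lost when 15Q replicate 2 (adjusted p = 0.175) or 3 (0.173) or 84Q replicate 3 (0.134) was left out, and through the fold threshold without 84Q replicate 2, with Xist as a covariate and with the length offsets. Xist was high in 2 of 3 15Q libraries and 1 of 3 84Q libraries. Igfbp5, a binding protein of the ligand, passed the adjusted p alone, at 366, 398 and 345 CPM in 15Q and 301, 300 and 292 CPM in 84Q (-0.31, adjusted p = 0.0291), and did not without 15Q replicate 2 (0.155) or 84Q replicate 3 (0.107). The receptor Igf1r, at 130, 134 and 145 CPM against 121, 128 and 110 CPM, differed by -0.19 (adjusted p = 0.281), the growth hormone receptor Ghr by -0.16 (0.734), the kinase Akt1 by 0.19 (0.134) and Jak2 by 0.00 (0.98). Of 27 genes of the pathway Igf1 was the called gene, with a list median of -0.11. The qPCR panel of the study held further genes, none of which was called here. Creb1 had a log2 difference of -0.21 (adjusted p = 0.153), Pik3r1 of -0.17 (0.31), Prkaa1 of -0.02 (0.894), Ndufa1 of 0.15 (0.585), Atp5a1 of 0.11 (0.343) and Fap of -0.54 (0.413).

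Mouse Atxn3 itself, which both lines carry beside the human transgene, was at 28.0, 29.1 and 30.2 CPM in 15Q and 28.8, 25.1 and 27.2 CPM in 84Q. The groups overlapped, and the log2 difference was -0.11 (SE 0.08, adjusted p = 0.494). It ranged from -0.15 to -0.05 when single libraries were left out. The human transgene is not a row of the mouse gene table, so its level was not analysed here and the labels could not be checked by it. None of 14 genes for ataxin-3 and its ubiquitin partners passed the adjusted p (median 0.07), including the segregase Vcp (0.10, adjusted p = 0.296), and none of 10 genes with polyglutamine tracts that expand in other diseases did (median -0.05).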

How the data were processed

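Cerebellar total RNA from 9 mice (3 per group) was sequenced on strand-specific libraries. The authors deposited raw counts per gene in 1 table. The submitters' processing notes name bcl2fastq 2.20, Trimmomatic 0.36, HISAT2 2.2.0, featureCounts and the build mm10. The counting options are not given in the sources used here, so multi-mapped and antisense reads may be split between genes. Positions came from GENCODE vM21 (37681 of 37816 genes matched by identifier) and promoter sequences from RefSeq.

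From these counts the genes that pass edgeR's filterByExpr were normalised by TMM and fitted with the quasi-likelihood model of edgeR 4.0.16 (R 4.3.3, limma 3.58.1) over all 9 libraries, with the contrast 84Q minus 15Q and Benjamini-Hochberg adjustment over 19353 genes. Levels are counts per 1000000 (CPM) of TMM-scaled totals, and errors (SE) are those of the log2 fold change. A fold against groups at 0 was computed from the mean of the 3-count floors of the libraries, and with 1 count in 84Q a ratio of summed counts was given with an exact (Clopper-Pearson) interval. Both cover counting error only. No 2 libraries of a group agreed within sampling noise in a chi-square test of their counts. The procedure was tested on simulated counts, in which only genes above 1 CPM were changed and none by less than 2-fold. Changes in genes at lower levels and smaller changes were not covered.

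Described were Atxn3 and the qPCR panel, the 15 genes with the smallest p in each direction with no overlap and at least 1 CPM, the 10 called genes with the highest level in each direction, members of 46 gene lists and runs of at least 3 called genes. A few others are named as chosen after their values were seen. Some genes that these rules name are not reported here. The comparison and the lists were chosen with earlier results of these data known. Alternatives were DESeq2 1.42.0, its size factors, 2 other filters on low counts, robust shrinkage, the 6 libraries alone, covariates for Xist and choroid plexus, the replicate number as a block, other thresholds, leaving out each library, and length offsets added after the data were seen.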

Additional observations from a re-analysis of the deposited data

How the results depend on the processing

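The number of called genes depended on the setting more than its direction did, since the lower genes outnumbered the higher ones in every setting. Against 414 genes (46 higher, 368 lower), an adjusted p under 0.05 gave 243 (15 higher, 228 lower), no fold threshold 928 (299 and 629), no filter on low counts 1025 (135 and 890) and a filter at a mean of 1 CPM 196 (20 and 176). Xist as a covariate gave 274 genes, 21 of them higher, and the length offsets gave 18 higher genes. Leaving out single libraries gave 184 to 551 genes, 8 to 69 higher and 170 to 490 lower. Called genes at 5 CPM or less numbered 325, and 122 with the 1 CPM filter, 868 without a filter, 201 at an adjusted p under 0.05 and 154 to 451 without single libraries. The 4 called members of cerebellar cell type lists became 2 with the 1 CPM filter, 2 at an adjusted p under 0.05, 13 without the fold threshold and 0 to 5 without single libraries. The 40 of the other-tissue lists became 21 with the 1 CPM filter and 84 without a filter, and 31 to 58 without single libraries. The pathway lists held 11 called genes among 515 tested (2.14%, beside 2.14% of all tested genes). These 11 became 25 without a filter, 52 without the fold threshold and 4 to 16 without single libraries. DESeq2, its size factors, robust shrinkage, the choroid plexus covariate and the fit of 6 libraries left all these counts within 1.5-fold. Of 269 genes described or listed, 34 were no longer called with Xist as a covariate, 31 with the choroid plexus covariate, 24 with the length offsets and 14 with robust shrinkage, all in the same direction, and 7 of 266 with DESeq2. The 269 genes include some that were not called at the outset, so these numbers are not shares of the called genes. Folr1, a choroid plexus gene that was not called (log2 difference 0.17), ranged from -6.20 to 0.78 without single libraries, and the lowest value, a reversal, was that without 84Q replicate 2, which was rich in choroid plexus markers.

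With the replicate number as a block, 242 genes were called (17 higher, 225 lower), 192 of them at 5 CPM or less, 2 in the cell type lists and 6 in the pathway lists. The numbers share no stated litter or batch, and the deviations of same-numbered 15Q and 84Q libraries correlated at -0.27, -0.31 and -0.19, so they do not pair the libraries. In that fit 39 of the 269 genes were no longer called, among them Neu4, Gabrb2, Slc7a11 and Igf1. Nor was 9530046B11Rik, and no Purkinje cell gene passed the adjusted p. No library correlated best with its own number. Replicates limit the precision, and genes at few counts per library could not be told from 0 in 84Q.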

Other observations

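No gene of the immediate early or blood lists was called. The summed level of 15 immediate early genes, which neuronal activity induces within minutes, was 218, 333 and 362 CPM in 15Q and 245, 330 and 652 CPM in 84Q. Fos, the best known of them, was at 2.97, 18.3 and 20.5 CPM in 15Q and 3.79, 22.0 and 88.0 CPM in 84Q (log2 difference 1.39, adjusted p = 0.399 by edgeR), so 84Q replicate 3 stood above the rest. The summed blood list was 49.9, 213 and 36.5 CPM in 15Q and 24.5, 35.8 and 91.5 CPM in 84Q, with 15Q replicate 2 highest. None of 6 tested genes of brainstem and monoamine neurons was called.

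Slc1a3, the glutamate transporter of Bergmann glia and astrocytes, was at 1349, 709 and 669 CPM in 15Q and 1100, 1244 and 1186 CPM in 84Q (log2 difference 0.37, adjusted p = 0.339). The 84Q+IGF-1 libraries had 1222, 1195 and 1222 CPM, so 15Q replicates 2 and 3 were below all other libraries. Rhox5, an X-linked homeobox gene known from the testis, was at 0 in each 15Q library and at 0.241, 0.176 and 0.456 CPM in 84Q, with 0.386, 0.527 and 0.103 CPM in 84Q+IGF-1. Its call (adjusted p = 0.051) was lost when 15Q replicate 2 (0.144), 15Q replicate 3 (0.17) or 84Q replicate 3 (0.145) was left out. The pseudogene Gm14438 was called higher with 3.62, 0.308 and 4.05 CPM in 84Q against 0.260, 0.323 and 0.342 CPM in 15Q, so 84Q replicate 2 was at the level of 15Q. Its call (adjusted p = 0.039) was lost when 15Q replicate 2 (0.155) or 3 (0.148) or 84Q replicate 3 (0.13) was left out. Both were chosen after their values were seen.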
